A study of Mus musculus with 2 samples.

Results

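Erythroid transcription factors are the DNA-binding proteins and cofactors that set up and drive the red cell program. The 10 genes described here (Gata1, Klf1, Tal1, Lmo2, Nfe2, Zfpm1, Gfi1b, Ldb1, Bcl11a and Foxo3) were chosen by gene symbol as known factors of the lineage, with no threshold on their values, and all 10 were found among the 32285 genes of the count matrices. GATA1 is the zinc finger factor that binds GATA sites in most erythroid genes, and it takes over from GATA2 as progenitors commit. ZFPM1 (also called FOG1) is its cofactor, and GFI1B is a repressor that GATA1 induces and then works with. TAL1, with an E-protein partner, binds E-boxes and is joined to GATA1 by the bridging proteins LMO2 and LDB1, which bind no DNA themselves. KLF1 binds CACCC boxes and drives adult beta-globin, heme and membrane genes. NFE2 pairs with small MAF proteins at the globin locus control region and in megakaryocytes, BCL11A represses fetal-type globin genes and is also a lymphoid factor, and FOXO3 drives antioxidant, autophagy and cell cycle exit genes in late erythroblasts.

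The data were single-cell RNA counts of femoral bone marrow from 2 mice, 1 per genotype, both 2 months old. The control mouse, labelled WT, was a littermate type that by the study's methods carried Ddx41 fl/fl without VavCre and with wild-type cGas. The DKO mouse carried VavCre:Ddx41 fl/fl and cGas-/-. VavCre acts across blood cells from an early stage, so every hematopoietic class of the DKO mouse lacked the helicase gene Ddx41 by design, the cGAS sensor gene was deleted in all tissues, and the effects of the deletions cannot be told apart. As each genotype was a single library, how much mice of a genotype vary is not known, no difference between genotypes was tested, and all intervals given are 95% intervals that cover counting error only.

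After cell calling, 18554 control and 13729 DKO cells were kept, with a median of 4870 and 6904 UMIs (unique molecular identifiers, 1 per captured RNA molecule) per cell, and 75 barcodes occurred in both libraries. Levels are given in CPM, the summed UMIs of a gene divided by all UMIs of the group of cells and brought to the usual scale of expression tables. By this measure control cells had Ddx41 at 20.3 CPM and DKO cells at 8.003 CPM, and Cgas was at 13.6 and 7.25 CPM. Neither was at 0 in DKO cells, and a 3' count does not show whether a remaining transcript holds the deleted exons. Erythroid-like cells, named from 18 markers that include none of the 10 factors, were 41.3% of the control cells (7657) and 46.7% of the DKO cells (6414). They were split by the share of their UMIs from hemoglobin genes into cells under 15%, 15 to 40%, 40 to 75%, 75 to 90% and 90% or more. This share served as an approximate measure of maturation and uses none of the factors. These stages held 1018, 545, 1208, 3511 and 1375 control cells and 722, 498, 1213, 1398 and 2583 DKO cells. All 18 markers were detected in each stage of each library. Cells under 15% were shallow, with a median of 1365 control and 1595.5 DKO UMIs, against 7928 and 11281 at 15 to 40%. They included 150 control and 57 DKO cells of a later cluster (cluster 19, 67.7% hemoglobin), with 2.49% and 1.06% of the stage's UMIs. This stage, called the least mature below, was thus not made of early cells alone.

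The members lie on 8 chromosomes of the mouse genome. Gata1 is at chrX:7959260-7978071 on the minus strand of GRCm38, Klf1 at chr8:84901928-84905291 and Tal1 at chr4:115056426-115071755 on the plus strand, and Foxo3, among the longest, at chr10:42181841-42276755 on the minus strand. Of the 10 members, 8 had promoter windows in RefSeq (GRCm38.p6, 250 bases before to 50 after a start), 11 windows in all. A GATA word (AGATAA or TGATAA, or either with G as its last letter, on either strand) was found in 4 of the 11 windows, belonging to 4 members, against 29.8% of the 32851 promoter windows of the same length. The 4 windows are shown because they are those of the 11 in which the letters bound by GATA1 occur. Lmo2 and Nfe2 had no window, and bases outside the windows were not searched. They run 5′ to 3′ on the strand of the gene, with each GATA word, or its reverse complement, in capitals.

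Gfi1b, chr2:28621933-28622232, minus strand: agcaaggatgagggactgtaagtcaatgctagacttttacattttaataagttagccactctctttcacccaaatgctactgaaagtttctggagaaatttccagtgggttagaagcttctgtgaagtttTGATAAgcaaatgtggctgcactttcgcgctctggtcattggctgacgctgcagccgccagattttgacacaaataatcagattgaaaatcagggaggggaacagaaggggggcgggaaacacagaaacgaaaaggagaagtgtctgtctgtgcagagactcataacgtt

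Tal1, chr4:115056176-115056475, plus strand: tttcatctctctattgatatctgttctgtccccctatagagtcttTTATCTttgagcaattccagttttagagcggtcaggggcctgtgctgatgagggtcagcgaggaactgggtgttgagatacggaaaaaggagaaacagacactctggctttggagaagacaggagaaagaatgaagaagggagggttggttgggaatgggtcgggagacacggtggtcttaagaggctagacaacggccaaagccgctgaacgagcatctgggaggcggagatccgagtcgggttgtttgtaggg

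Klf1, chr8:84901732-84902031, plus strand: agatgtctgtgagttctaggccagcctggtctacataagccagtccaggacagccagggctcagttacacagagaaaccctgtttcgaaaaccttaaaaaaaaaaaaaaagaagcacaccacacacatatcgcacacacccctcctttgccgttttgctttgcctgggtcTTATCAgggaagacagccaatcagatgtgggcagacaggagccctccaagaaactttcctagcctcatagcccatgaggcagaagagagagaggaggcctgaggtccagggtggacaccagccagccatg

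Ldb1, chr19:46037021-46037320, minus strand: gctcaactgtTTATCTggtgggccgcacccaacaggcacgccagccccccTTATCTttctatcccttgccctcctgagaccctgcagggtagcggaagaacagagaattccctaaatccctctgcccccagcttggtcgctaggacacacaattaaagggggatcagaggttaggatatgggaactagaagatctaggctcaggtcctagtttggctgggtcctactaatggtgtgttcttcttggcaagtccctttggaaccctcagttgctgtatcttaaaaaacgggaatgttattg

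The word began 120 bases before the start in Gfi1b, 205 before it in Tal1 and 80 before it in Klf1, and the Ldb1 window held 2, at 240 and 200 bases before its start. None of these words shared bases with a match to the other motifs searched. The CACCC-type motif CCNCNCCC was in 9 of the 11 windows, against 49.5% of all windows, the E-box words CAGATG or CAGCTG in 2, against 30.6%, and CCAAT in 4, against 37.4%. These are matches of letters in short windows and not measured binding sites.

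The factors were not all highest at the same maturity. By CPM, 5 of the 10 members in the control library and 6 in DKO cells had their highest level in cells of 15 to 40% hemoglobin. Bcl11a and Ldb1 were highest in the least mature cells, whereas Nfe2 and Foxo3 were highest at 40 to 75%. Nearly all members were far lower above 75% hemoglobin, and Lmo2 kept the largest share of its peak level there. Hemoglobin UMIs take up most of the total in mature cells and lower the CPM of every other gene, so the levels were also scaled to the UMIs that are not from hemoglobin genes. On that scale 4 members in the control and 2 in DKO cells had their highest level at 15 to 40%.

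Gata1 was at 167 CPM (Poisson interval 157 to 178) below 15% hemoglobin, 183 at 15 to 40%, 84.0 at 40 to 75%, 4.70 at 75 to 90% and 3.47 at 90% or more in the control library. In the DKO library it was at 185, 200, 117, 7.23 and 1.62 CPM in the same order. The first step was small, with a log2 difference of 0.13 among control cells (interval -0.00099 to 0.26) and 0.12 in DKO cells (0.0032 to 0.23), while the step from 40 to 75% down to 75 to 90% was -4.15 and -3.996. Its cofactor Zfpm1 had a clearer peak, with 220, 353, 163, 10.1 and 4.999 CPM in the control and 270, 441, 274, 19.1 and 4.11 CPM in DKO cells. Gfi1b, the repressor, was already past its highest level at 15 to 40% in the control library (140, 115, 37.5, 2.07 and 1.25 CPM), whereas in DKO cells the levels below 15% and at 15 to 40% (130 and 135 CPM) did not differ beyond counting error (log2 difference 0.055, interval -0.084 to 0.19). The remaining DKO values of Gfi1b were 59.5, 1.53 and 0.430 CPM.

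Klf1 followed the order of Gata1. It was at 279, 363, 208, 6.82 and 3.19 CPM in the control library and at 272, 387, 271, 11.2 and 1.146 CPM in DKO cells, from the least to the most mature stage. Between 40 to 75% and 75 to 90% its log2 difference was -4.92 in the control (interval -5.20 to -4.68) and -4.58 in DKO cells (-4.86 to -4.34), more than for any other member in the control library, and in DKO cells exceeded by Gfi1b (-5.20).

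Of the TAL1 complex, Tal1 and Lmo2 had unlike courses. Tal1 was at 172, 271, 162, 10.6 and 4.03 CPM in the control and 224, 399, 307, 21.7 and 1.53 CPM in DKO cells. Lmo2 was at 494, 582, 566, 148 and 60.7 CPM in the control and 457, 545, 488, 183 and 50.7 CPM in DKO cells. The Lmo2 levels at 15 to 40% and 40 to 75% did not differ beyond counting error in the control library (log2 difference -0.040, interval -0.11 to 0.030). Its drop into 75 to 90% hemoglobin was -1.93 on the log2 scale in the control and -1.42 in DKO cells, against -3.93 and -3.82 for Tal1. Scaled to non-hemoglobin UMIs, Lmo2 was highest at 40 to 75% in the control library and at 75 to 90% in DKO cells. Ldb1, the dimerizing partner that ties the complex to distant enhancers, was at 71.9, 23.0 and 6.06 CPM in the control and 79.3, 29.2 and 6.42 CPM in DKO cells over the 3 stages below 75%, and under 2 CPM beyond.

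Nfe2 and Foxo3 came up later than Gata1. Nfe2 was at 62.9 CPM below 15%, 139 at 15 to 40%, 178 at 40 to 75%, 25.3 at 75 to 90% and 5.69 at 90% or more in the control library, and at 69.4, 168, 212, 59.4 and 4.92 CPM in DKO cells. Its log2 difference from 15 to 40% to 40 to 75% was 0.36 (interval 0.22 to 0.50) and 0.34 (0.23 to 0.45), a step at which Gata1 was lower in both libraries (-1.12 and -0.78). Foxo3 was at 283, 353, 364, 51.5 and 12.8 CPM in the control and 327, 449, 497, 148 and 14.4 CPM in DKO cells. In cluster 9, the erythroid-like cluster with the least hemoglobin, Foxo3 was lower, at 96.0 CPM in the control and 121 in DKO cells. The levels of Foxo3 at 15 to 40% and 40 to 75% differed by 0.041 among control cells (interval -0.047 to 0.13), within counting error, and by 0.15 in DKO cells (0.080 to 0.21).

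Bcl11a marked the least mature erythroid cells. It was at 184 CPM below 15%, 24.8 at 15 to 40% and 5.32 at 40 to 75% in the control library, and at 214, 24.2 and 2.37 CPM in DKO cells. In a finer split it was at 237 (control) and 261 CPM (DKO) in cells under 5% hemoglobin and at 59.4 and 90.6 CPM in cells of 10 to 15%. No other member was lower by as much between the first 2 stages (log2 -2.88 and -3.13), and Ldb1 was next (-1.63 and -1.43).

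**Figure D1:**
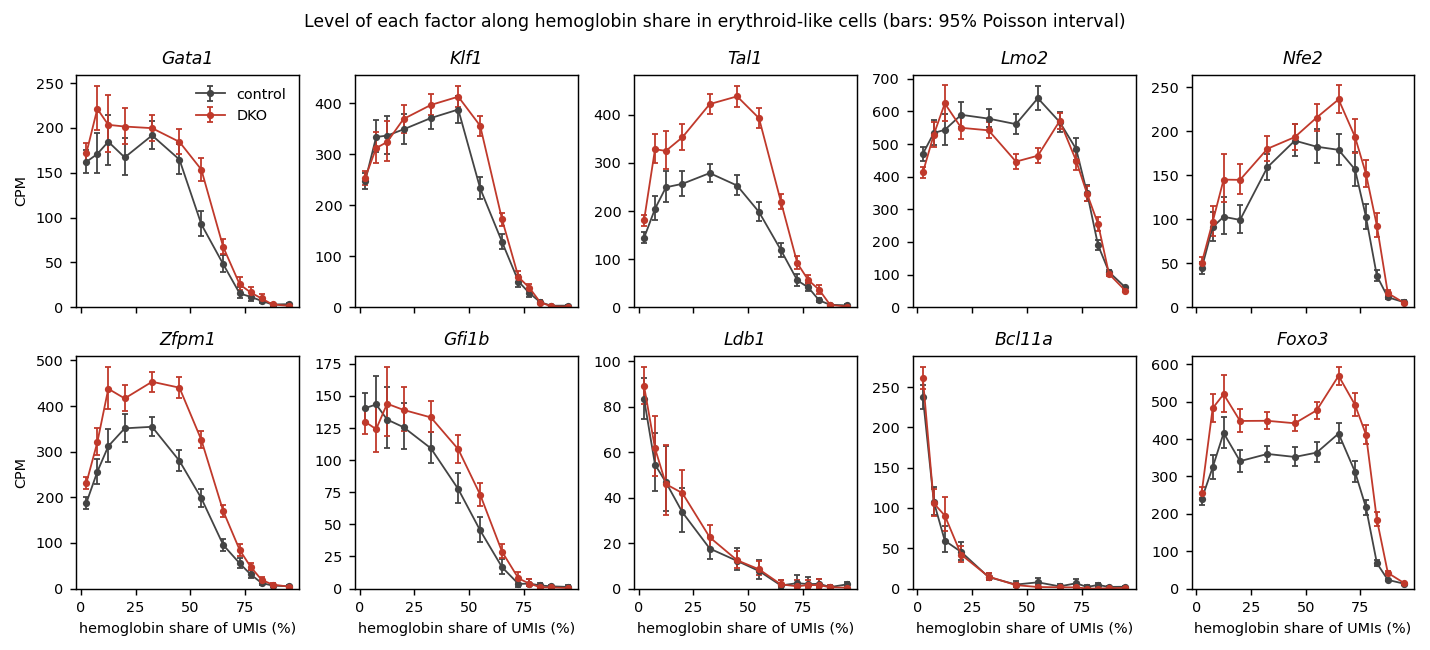
Level of each of the 10 factors (CPM, vertical axis) in erythroid-like cells by the hemoglobin share of their UMIs (percent, horizontal axis), with control and DKO libraries as separate lines and bars for the Poisson 95% interval, which covers counting error only. Bcl11a is highest under 5% hemoglobin, Gata1 below 50%, and Foxo3 stays at 312 CPM in the control and 491 in DKO cells at 70 to 75%, where Gata1 is at 15.4 and 25.6 CPM.

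Outside the erythroid-like cells, most factors were also present in megakaryocyte-like and in basophil or mast-like cells, and Klf1 was low in the former. In megakaryocyte-like cells (412 control and 119 DKO cells), Gata1 was at 163 and 220 CPM, Tal1 at 215 and 314, Zfpm1 at 210 and 238, Gfi1b at 106 and 118, and Nfe2 at 222 and 361 CPM. Nfe2 was higher there than in any erythroid stage of its library. Gata1 among DKO cells was also highest there, but its interval (192 to 252 CPM) overlapped that at 15 to 40% hemoglobin (189 to 213 CPM). Klf1, which marks the erythroid side of the split from megakaryocytes, was there at 14.9 CPM (31 UMIs) and 1.01 CPM (1 UMI), while Fli1, the megakaryocyte factor that opposes it, was at 955 and 1067 CPM. In basophil or mast-like cells (351 and 146 cells), Gata1 was at 46.3 and 53.3 CPM, Lmo2 at 522 and 419, Bcl11a at 253 and 247 and Klf1 at 24.1 and 27.3 CPM.

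Bcl11a was highest in classes far from the red cell lineage, at 747 CPM in control and 896 in DKO dendritic-like cells and at 338 and 391 CPM in B cell-like cells. Lmo2 was also spread widely, from 20.5 and 14.7 CPM in T or NK cell-like cells to 241 and 194 CPM in progenitor-like cells, a class led by neutrophil granule genes such as Elane and Mpo. Foxo3 and Ldb1 were found in every class. Spi1, the myeloid factor that opposes Gata1, was at 477 and 472 CPM in neutrophil-like cells and at 14.5 and 5.71 CPM in the least mature erythroid-like cells.

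Gata2, which precedes Gata1, was low in erythroid-like cells. It was at 345 (control) and 479 CPM (DKO) in basophil or mast-like cells, 82.5 and 120 CPM in megakaryocyte-like cells and 7.35 and 10.9 CPM in erythroid-like cells under 15% hemoglobin, and at 15 to 40% it had 1 UMI in the control and 0 in DKO cells (a count of 0 allows up to 3 UMIs). Of the UMIs of both GATA genes, Gata1 made up 95.8% in the control (exact interval 94.4% to 96.9%) and 94.4% in DKO cells (93.1% to 95.5%) below 15% hemoglobin. The share was 99.9% and 100% at 15 to 40%, 66.4% and 64.8% in megakaryocyte-like cells, and 11.8% (10.2% to 13.6%) and 10.0% (8.37% to 11.8%) in basophil or mast-like cells. Control and DKO intervals overlapped in each of these groups, and since it is a ratio within a group, the share does not depend on scaling.

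RNA outside cells put a floor under these levels. Barcodes of at most 100 UMIs in the control library, taken as empty droplets, held Gata1 at 73.6 CPM, Lmo2 at 224 and Foxo3 at 151 CPM, with 14.5% hemoglobin UMIs, and the DKO files held no such barcodes. In B cell-like cells, which should lack Gata1, it was at 4.78 CPM in the control and 1.32 in DKO cells (median 2630 and 3782 UMIs per cell). Gata1 at 90% hemoglobin or more (3.47 and 1.62 CPM, median 5132 and 7918 UMIs) was at about this level, as was Klf1 (3.19 and 1.146 CPM, against 5.45 and 4.31 in B cell-like cells), so neither was read as expressed there. Gfi1b was below its B cell-like level (6.34 and 3.09 CPM) from 75% hemoglobin on.

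**Figure D2:**
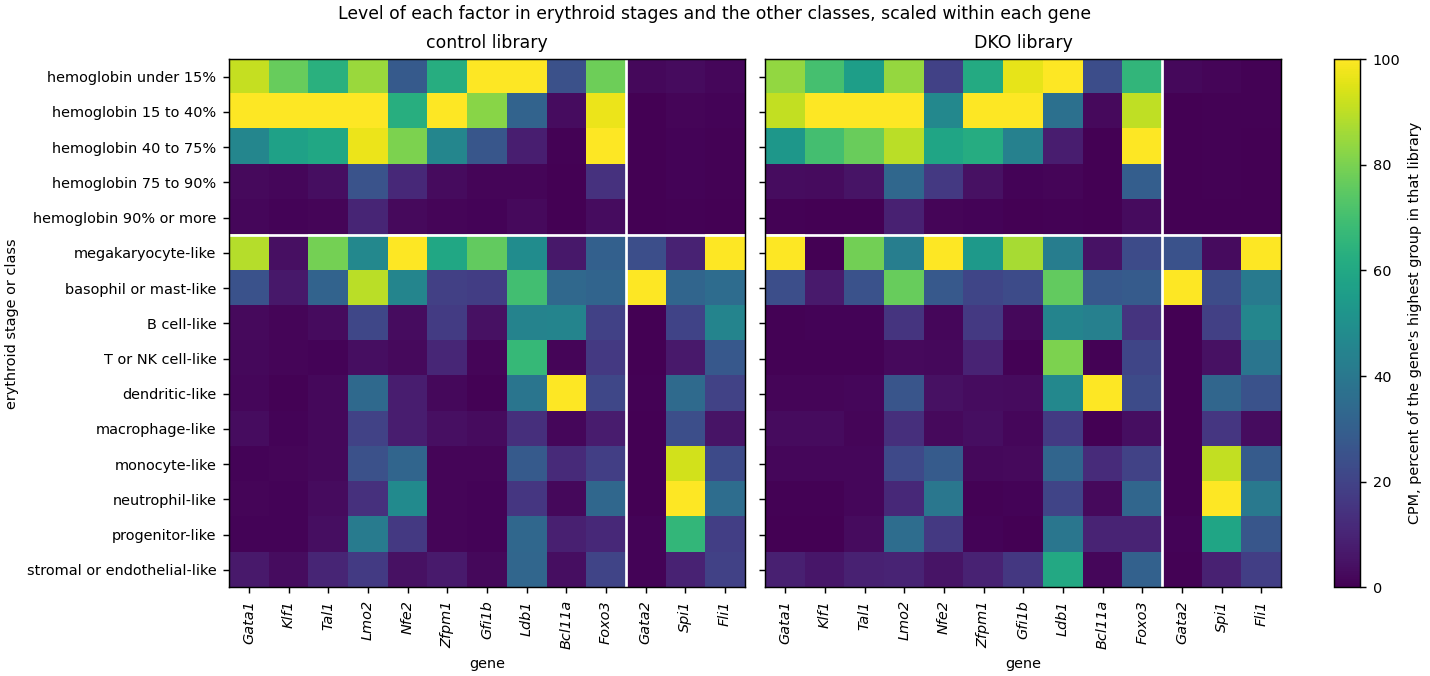
Level of each factor in the 5 erythroid stages and 10 other classes in each library, as a percent of that gene's highest group in the same library (color). Gata2, Spi1 and Fli1 stand to the right for comparison. Read down a column, Klf1, Tal1, Zfpm1 and Gfi1b are brightest in erythroid stages below 40%, Nfe2 in megakaryocyte-like cells and Bcl11a in dendritic-like cells, and Gata1 peaks at 15 to 40% in the control and in megakaryocyte-like cells in the DKO panel. In the DKO library the Gata1 intervals of these 2 groups overlap.

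Among the factors themselves, Gata1 and Gfi1b had the most similar courses over the 15 groups (Pearson r of log2(CPM + 5) 0.98 in each library), and Gata1 and Tal1 also reached 0.98 in each. Gata1 and Bcl11a had r = 0.062 and 0.025. The groups of a library share its depth and its free RNA, and neighboring stages are alike by construction, so these are descriptions with no test. Among 10159 genes, those most like Gata1 in the control library were C530008M17Rik (r = 0.98, and 0.97 in DKO cells), Samd14 (0.98 and 0.98), Tom1l1 (0.97 and 0.97), Pcyt1b (0.97 and 0.94) and Cd59b (0.97 and 0.95). Samd14 is known as a GATA-regulated gene in erythroid cells. For Klf1 they were Ntn4, Ces2g, Dpf3, Icam4 and Hemgn (r = 0.99 to 0.98 in the control library). Icam4, a red cell adhesion molecule of the erythroblastic island, had r = 0.98 and 0.94, and Hemgn, a nuclear protein of erythroid precursors, 0.98 and 0.95. For Foxo3 they were Usp15, Herc1, Pkn2, Narf and Tab3 (0.97 to 0.94), and Usp15 and Herc1 encode enzymes of the ubiquitin system. For Bcl11a they were Gm12064, Xrcc6, Parp1, Gm10138 and Odf2l (0.91 to 0.90), of which Xrcc6 and Parp1 encode DNA repair proteins.

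The comparison of DKO with control asks how the levels of these factors differed in erythroid cells in which Ddx41 and cGas were deleted. Below 75% hemoglobin DKO cells held higher levels of Tal1, Zfpm1 and Foxo3 at each stage and a lower level of Lmo2. Below 15% these directions did not all hold, since Foxo3 was at -0.023 with the trend of the ratio with gene length taken out and Lmo2 at 0.045 with each cell weighted alike. Gata1, Klf1 and Gfi1b were closer to the control level below 40% hemoglobin than at 40 to 75%, where all 3 were above it. That did not hold when each cell took the stage of its whole cluster. At 40 to 75%, Gata1 and Klf1 were then below the control level and Gfi1b was near it, as given below. Values are the log2 of DKO over control, with 1 count added to each sum, and a member was counted as higher or lower from 1.5-fold on, among genes of at least 20 CPM on average over the 2 libraries.

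Below 15% hemoglobin, 0 of the 10 members was lower and 0 was higher by 1.5-fold, where 2.28% of 5742 genes were lower and 2.59% higher. The median of the members was 0.14 and that of all genes 0.098. Tal1 had the highest ratio, 0.38 (interval 0.27 to 0.49), above that of 84.6% of all genes, and Zfpm1 was at 0.29 (0.20 to 0.39). Lmo2 had the lowest, -0.11 (-0.18 to -0.042), and Klf1 at -0.033 (-0.13 to 0.059) did not differ beyond counting error.

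At 15 to 40%, the count was again 0 lower and 0 higher of 10, against 3.28% and 2.68% of 4180 genes. The median was 0.26 for the members and 0.037 for all genes. Tal1 stood at 0.55 (0.45 to 0.66), above 96.7% of genes, Foxo3 at 0.34 (0.25 to 0.44), Zfpm1 at 0.32 (0.23 to 0.41) and Nfe2 at 0.27 (0.13 to 0.42). The intervals of Gata1 (0.13, -0.0032 to 0.26) and Klf1 (0.091, -0.0023 to 0.19) reached 0. Lmo2 was again below it (-0.095, -0.17 to -0.019).

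At 40 to 75%, 8 members passed the level filter, 0 was lower by 1.5-fold and 3 were higher, against 5.6% and 13.1% of 2696 genes. The 3 were Tal1 (307 against 162 CPM, log2 0.93, interval 0.84 to 1.02), Zfpm1 (274 against 163 CPM, 0.75, 0.66 to 0.84) and Gfi1b (59.5 against 37.5 CPM, 0.66, 0.47 to 0.86). Tal1 was above 97.9% of all genes, Zfpm1 above 94.5% and Gfi1b above 90.8%. Gata1 was at 0.47 (0.34 to 0.61), Foxo3 at 0.45 (0.39 to 0.51), Klf1 at 0.38 (0.30 to 0.46) and Nfe2 at 0.25 (0.16 to 0.35). Lmo2 was lower, 488 against 566 CPM (-0.21, -0.27 to -0.16). Tal1 made up 9.12% of all UMIs of the 10 members in the control and 13.8% in DKO cells at this stage, and Lmo2 31.9% and 21.8%. Ldb1 and Bcl11a did not pass the filter and were at 0.070 (-0.44 to 0.62) and -1.15 (-1.88 to -0.47), the latter from 43 and 31 UMIs. Gene length moved with the ratio here, since the median was -0.15 over the shortest 10% and 0.35 over the longest 10% of the genes tested. With that trend taken out, Tal1 was at 0.87, Gfi1b at 0.60, Zfpm1 at 0.49, which is under 1.5-fold, and Foxo3 at 0.16.

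**Figure D3:**
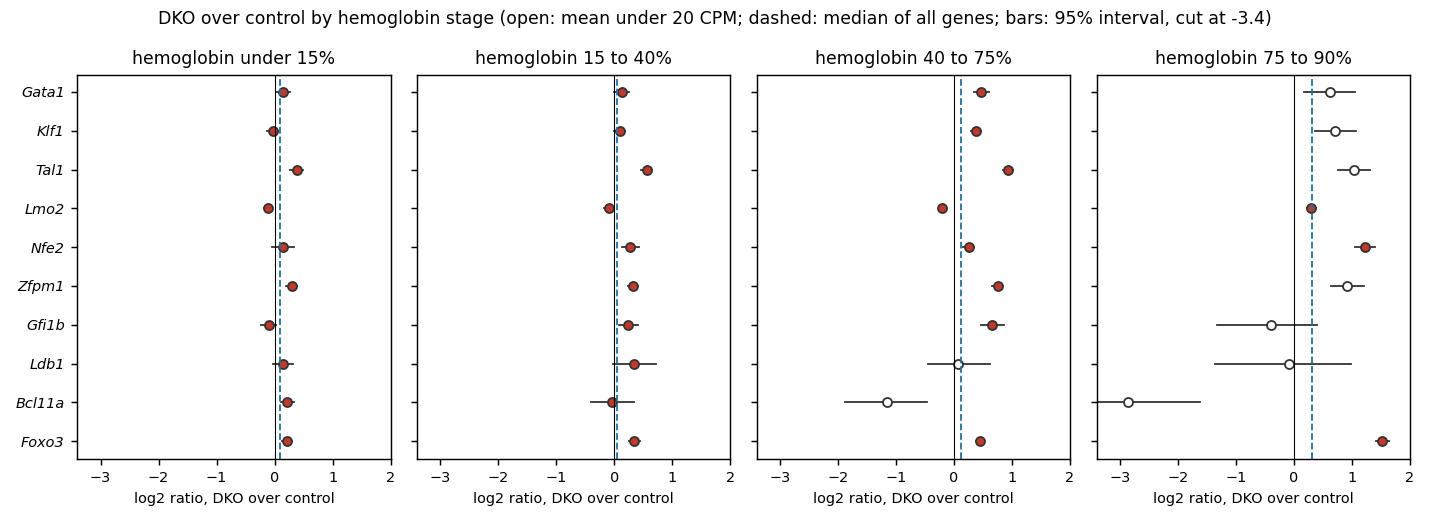
Log2 ratio of DKO over control (horizontal axis) for each factor in 4 erythroid stages up to 90% hemoglobin, with counting-error 95% intervals as bars, open points for means under 20 CPM and a dashed line at the median of all genes. Tal1 is at 0.38, 0.55 and 0.93 in the first 3 stages, Lmo2 is below 0 in all 3, and the intervals are widest at 75 to 90%.

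**Figure D4:**
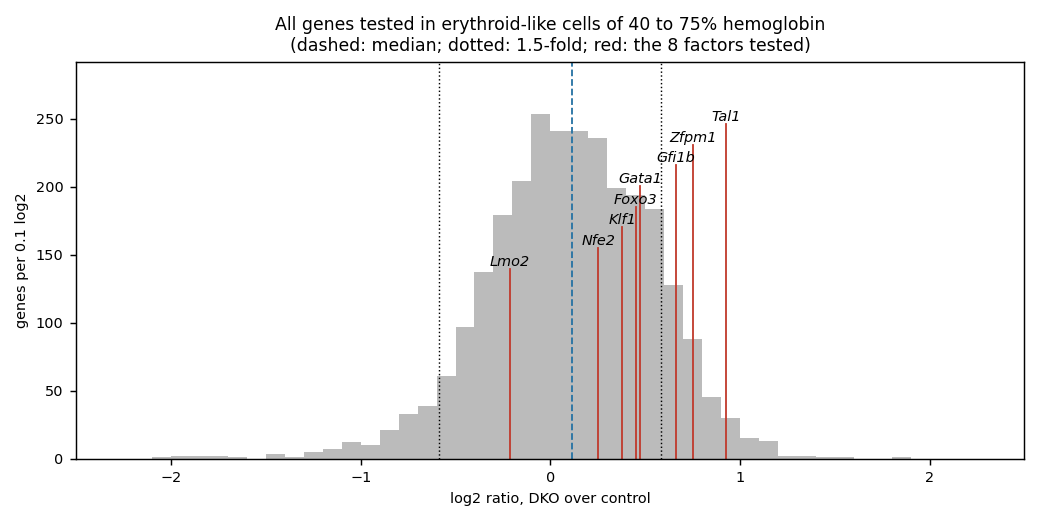
Distribution of the log2 ratio of DKO over control for the 2696 genes tested at 40 to 75% hemoglobin (vertical axis, genes per 0.1 of log2), with red lines at the 8 factors that passed the level filter, whose heights carry no value. Tal1 at 0.93 lies near the upper end and Lmo2 at -0.21 below the median of all genes, which is 0.11.

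A finer split by hemoglobin share gave the same directions for 3 genes. Over 9 bins between 0 and 75%, Tal1 was higher in DKO cells in all 9 bins with intervals apart in all 9, and so was Zfpm1. Foxo3 was higher in all 9, with intervals apart in 8, and Gata1 and Nfe2 were higher in all 9, with intervals apart in 3 and 2. Of 1244 genes tested in all 9 bins, 13.4% were higher in every bin and 14.5% lower in every bin. In cells of 40 to 50% hemoglobin, Tal1 was at 438 CPM in the DKO and 253 in the control library, and in cells of 50 to 60% at 393 and 198 CPM. Lmo2 was lower in 7 of the 9 bins, with intervals apart in 3.

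The stages were not made of the same clusters in the 2 libraries, and this bears on the values at 40 to 75%. There, cluster 18, led by Tmcc2 and Xpo7 and at 76.0% hemoglobin, gave 14.8% of the control UMIs and 2.45% of the DKO UMIs, and cluster 11, led by histone genes and Hemgn, gave 33.9% and 43.9%. When each cell took the stage of its whole cluster, the median of the members was -0.034, Gata1 (-0.10) and Klf1 (-0.096) were on the other side of 0, Tal1 was at 0.40, Zfpm1 at 0.26, Foxo3 at 0.14, Gfi1b at 0.027 and Lmo2 at -0.23. The clusters of that stage were not matched in maturity either. Hemoglobin share was 57.6% in DKO and 52.8% in control cells of cluster 12, and 69.9% and 63.2% in cluster 19. The part of this in the cluster-based values was not tested. At 15 to 40% the clusters also differed (cluster 13, led by Pkhd1l1, gave 14.8% of control and 39.8% of DKO UMIs). Tal1 was at 0.59 there by the cluster's stage, close to its main value. Foxo3 in the control library was at 577 CPM in cluster 13 and 274 in cluster 11. Its ratio was -0.029 (interval -0.13 to 0.078) within cluster 13 and 0.39 (0.31 to 0.47) within cluster 11. The part of the cluster shift in its value at 15 to 40% was not tested.

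The genotypes were also compared within each cluster. DKO cells held the larger hemoglobin share in every erythroid-like cluster but cluster 9 (6.10% against 9.74% in the control). In DKO and control cells the shares were 41.6% and 34.4% in cluster 11, and 69.9% and 63.2% in cluster 19. Hemoglobin UMIs lower the CPM of other genes, and the part of this in the ratios was not tested. Of the 9 erythroid-like clusters, 6 were under 80% hemoglobin. In these, Tal1 was higher in DKO cells in 6 of 6 (log2 0.16 to 0.60), as was Nfe2 (0.11 to 0.59), and among 1073 genes tested in all 6, 3.73% were higher in all of them. Tal1 was at 391 CPM in the DKO and 259 in the control library in cluster 11 (0.59, interval 0.51 to 0.67), at 345 and 227 CPM in cluster 12 (0.60, 0.44 to 0.77), and at 419 and 290 CPM in cluster 13 (0.53, 0.39 to 0.67). Nfe2 stood out in cluster 13, at 160 and 105 CPM (0.59, 0.36 to 0.84). Zfpm1 and Foxo3 were higher in 5 of 6. Gata1 was higher in 5 of 6 and Klf1 in 4 of 6, and they ran from -0.46 to 0.20 and from -0.35 to 0.24.

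Lmo2 was lower in DKO cells in 9 of 9 clusters with its interval below 0 in each, from -0.18 to -0.38 in the 6 under 80% hemoglobin and from -0.42 to -0.99 in the 3 above. In cluster 12 it was at 613 CPM in the DKO and 741 in the control library (-0.27, -0.37 to -0.18). Among the 338 genes tested in all 9 clusters 33.7% were lower in every one, and among the 1073 tested in the 6 clusters 25.1% were lower in each of those, so a lower level in every cluster was common. The median of all genes was itself below 0 in 5 of the 6 clusters (-0.11 to -0.37) and 0.18 in cluster 9, the least mature. The larger hemoglobin share of DKO cells in the other clusters, given above, also lowers the CPM of Lmo2 there, and its part was not tested.

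**Figure D5:**
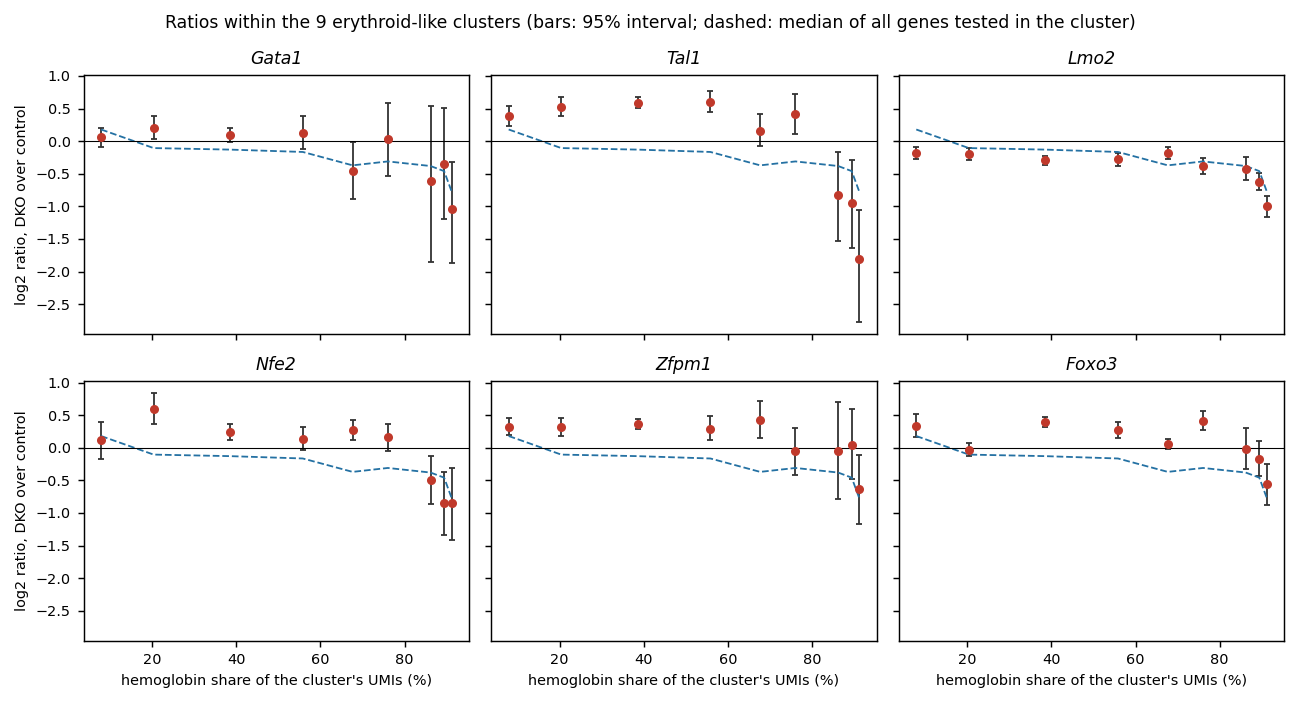
Log2 ratio of DKO over control (vertical axis) for Gata1, Tal1, Lmo2, Nfe2, Zfpm1 and Foxo3 in the 9 erythroid-like clusters by the hemoglobin share of their UMIs (percent, horizontal axis), with counting-error 95% intervals as bars and a dashed line at the median of all genes tested in the cluster. Tal1 and Nfe2 are above 0 in the 6 clusters under 80% and below 0 in the 3 others, and Lmo2 is below 0 in all 9.

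Bcl11a did not keep 1 direction. It was higher in DKO cells in cluster 9 (239 against 180 CPM, 0.41, interval 0.28 to 0.53) and lower in cluster 13 (71.9 against 137 CPM, -0.94, -1.18 to -0.69). Below 15% hemoglobin, where cluster 9 gave 66.5% of control and 62.7% of DKO UMIs and cluster 13 gave 14.3% and 26.2%, its ratio was 0.22 (0.11 to 0.33), and with each cell weighted alike it was -0.48. Ldb1 was higher in cluster 9 (0.24, 0.043 to 0.45), and its intervals included 0 in the other clusters under 80%.

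In the 2 late stages most members had low levels in both libraries. Of the 10 ratios, with or without passing the level filter, 7 were above 0 at 75 to 90% and 9 were below 0 at 90% or more. Among all genes tested, 64.1% were above 0 at 75 to 90% and 39.7% at 90% or more. At 75 to 90%, 3 members passed the level filter, with 0 lower and 2 higher by 1.5-fold (Nfe2 and Foxo3), against 15.1% and 38.2% of 676 genes. Foxo3 was at 148 CPM in the DKO and 51.5 in the control library (1.53, interval 1.41 to 1.64), Nfe2 at 59.4 and 25.3 CPM (1.23, 1.06 to 1.40), and Lmo2 at 183 and 148 CPM (0.31, 0.22 to 0.39). Tal1, below the filter, was at 21.7 and 10.6 CPM (1.03, 0.76 to 1.31). In this stage cluster 19, the less mature cluster led by Xpo7, held 1.42% of control and 15.3% of DKO UMIs, cluster 3 held 33.7% and 8.18%, and Malat1, a nuclear RNA that is lost with the nucleus, was at 543 and 1345 CPM. By the stage of the whole cluster, Foxo3 was at -0.19, Nfe2 at -0.56, Lmo2 at -0.71 and Tal1 at -0.45. All 4 values thus changed sign with the way cells were assigned to the stage. DKO cells held more hemoglobin within the clusters of that stage too, as in cluster 18 (78.4% against 74.3%), and its part in these values was not tested.

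At 90% hemoglobin or more, 1 member passed the filter, Lmo2, at 50.7 against 60.7 CPM (-0.26, interval -0.42 to -0.095), with 0 lower and 0 higher by 1.5-fold against 29.2% and 12.9% of 325 genes. Median hemoglobin share was 91.4% in the control and 92.6% in the DKO cells of this stage, and Malat1 was at 100.95 and 26.6 CPM. With the control matched to the DKO cells on hemoglobin share, Lmo2 was at 0.032. Gata1 (25 and 34 UMIs), Tal1 (29 and 32) and Klf1 (23 and 24) had few counts.

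In megakaryocyte-like cells, 9 members passed the filter, 0 was lower and 1, Nfe2, was higher by 1.5-fold, against 5.95% and 11.7% of 5951 genes. Nfe2, which platelet formation needs, was at 361 CPM in the DKO and 222 in the control library (0.71, interval 0.50 to 0.91). A higher level of Nfe2 was not particular to this class. Nfe2 was at 0.71 in progenitor-like (0.52 to 0.89), 0.52 in monocyte-like (0.37 to 0.67) and 0.45 in neutrophil-like cells (0.37 to 0.52). Of the 10 classes other than erythroid-like, it was above 0 in 7 and below 0 in 3. In megakaryocyte-like cells Tal1 (0.55, 0.33 to 0.76) and Gata1 (0.44, 0.18 to 0.68) were higher by less than 1.5-fold. Klf1 had 1 UMI in the DKO and 31 in the control library, a ratio of -2.92 whose interval ran from -9.22 to -1.29, while hemoglobin UMIs were 7.43% and 14.0% of these cells' total. At a finer clustering Klf1 was at 0.21 in this class. In basophil or mast-like cells, 10 members passed and none crossed 1.5-fold (0 lower and 0 higher), against 2.67% and 5.24% of 6903 genes. Zfpm1 was at 92.0 and 67.1 CPM (0.46, 0.18 to 0.73), but -0.48 with doublets kept. Foxo3 was at 144 and 118 CPM (0.28, 0.073 to 0.49) and Lmo2 at 419 and 522 CPM (-0.32, -0.43 to -0.21).

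The lower level of Lmo2 was not limited to the erythroid cells. In the 10 classes other than erythroid-like, Lmo2 was lower in DKO cells in 10 of 10, from -0.22 to -0.83, with the interval below 0 in 8 and 9 of the classes past the level filter, where 3.91% of 6749 genes were lower in all 10 classes and 7.81% higher in all 10. It was at 81.8 CPM in the DKO and 123 in the control library in B cell-like cells (-0.59, interval -0.73 to -0.46), at 143 and 200 CPM in dendritic-like cells (-0.48, -0.70 to -0.27), at 194 and 241 CPM in progenitor-like cells (-0.31, -0.40 to -0.22), and at 63.6 and 80.5 CPM in neutrophil-like cells (-0.34, -0.44 to -0.24). Scaling without hemoglobin UMIs, centring on all genes and a finer clustering each left it at 10 of 10. Empty droplets of the control library held Lmo2 at 224 CPM, above its level in 7 of these classes, and the part of free RNA in the difference was not tested.

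Foxo3 took the opposite direction. It was higher in DKO cells in 9 of these 10 classes, with its interval above 0 in 7. Ldb1 was also higher in 9 of 10, with its interval above 0 in 5. The share of all genes higher in 9 of 10 classes was not counted. Foxo3 was at 164 CPM in the DKO and 122 in the control library in neutrophil-like cells (0.43, 0.36 to 0.50), at 98.6 and 67.0 CPM in monocyte-like cells (0.56, 0.40 to 0.71) and at 103 and 60.1 CPM in T or NK cell-like cells (0.78, 0.47 to 1.08). The median of all genes in the 10 classes was between -0.034 and 0.32, and after centring on it Foxo3 was higher in 7 of 10. Empty droplets of the control library held Foxo3 at 151 CPM, above its control level in all 10 classes. Foxo3 spans 94915 bases. From the shortest to the longest 10% of genes, the median ratio went from -0.16 to 0.28 in basophil or mast-like cells. In megakaryocyte-like cells it went from 0.053 to 0.029. The parts of free RNA and gene length in the Foxo3 values were not tested.

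Partners of the factors were described from a list of 20. At 40 to 75% hemoglobin, 14 passed the level filter, 5 were higher and 1 was lower by 1.5-fold, against 13.1% and 5.6% of all genes, with a median of 0.41. The lowest was Cbfa2t3 (also called ETO2, a corepressor of the TAL1 complex), at 14.0 CPM in the DKO and 33.8 in the control library (-1.27), and the highest Chd4, the remodeler of the NuRD corepressor, at 48.2 and 25.002 CPM (0.94). Below 15% 19 passed, 0 crossed 1.5-fold in either direction, against 2.59% of all genes higher and 2.28% lower, and the median was 0.29, from Mafg (-0.15) to Trim33 (0.52). Of 10 factors of other lineages, 3 passed at 40 to 75%, with 0 past 1.5-fold in either direction, against the same shares of all genes as for the partners at that stage, from Runx1 (0.045) to Ikzf1 (0.50).

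Genes known as targets of GATA1 or KLF1 stayed near the median of all genes at 40 to 75% hemoglobin. Of 20 listed, 19 were in the files and 17 passed there, with 0 higher and 0 lower by 1.5-fold, against 13.1% and 5.6% of all genes, and a median of 0.10, next to 0.11 for all genes. They ran from Urod (-0.27) to Cpox (0.53), both enzymes of heme synthesis. Slc4a1, the anion exchanger band 3, was at 1989 CPM in DKO and 1620 in control cells (0.30). At 75 to 90% 10 of 15 were higher and 0 lower, against 38.2% and 15.1% of all genes, with a median of 0.62. At 90% or more 5 of 9 were higher and 0 lower, against 12.9% and 29.2%, with a median of 0.64. Cluster 19 gave 1.42% of control and 15.3% of DKO UMIs at 75 to 90%, and cluster 3 gave 81.6% and 56.4% at 90% or more. The part of these unlike clusters in the target values was not tested. Below 15% hemoglobin 1 of 19 was lower by 1.5-fold, against 2.28% of all genes. It was Bcl2l1, the survival gene that encodes BCL-XL, at 49.2 and 80.5 CPM (-0.71), and Tfrc, the transferrin receptor, was the highest (0.50). In megakaryocyte-like cells 10 of 14 were lower by 1.5-fold and 0 higher, against 5.95% and 11.7% of all genes, with a median of -0.91, where the DKO cells also had the smaller hemoglobin share given above.

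The list for FOXO3 had a median below 0 in the 3 stages under 75% hemoglobin and above 0 in the 2 later ones. Of 12 genes known as its targets or as acting with it, 11 passed at 40 to 75% hemoglobin, 0 were higher and 2 lower by 1.5-fold, against 13.1% and 5.6% of all genes, and the median was -0.31, while Foxo3 was at 0.45. The lowest was Txnip, a regulator of redox state and glucose uptake, at 24.9 CPM in the DKO and 54.2 in the control library (-1.12). Cdkn1b, the cell cycle inhibitor p27, was at 175 and 274 CPM (-0.65), Map1lc3b, an autophagosome protein, at 385 and 576 CPM (-0.58), and Xpo7, a nuclear exportin needed in maturing erythroblasts, at 1635 and 1616 CPM (0.018). Below 15% the median was -0.25 and 1 of 12 was lower (Xpo7, -1.06), against 2.28% of all genes, and at 15 to 40% it was -0.42 with 3 of 11 lower, against 3.28%. At 75 to 90% the median was 0.42, with 4 of 9 higher and 0 lower against 38.2% and 15.1% of all genes, and at 90% or more it was 0.52, with 2 of 6 higher and 0 lower against 12.9% and 29.2%. The clusters within these stages differed between the libraries as given above, and the part of that in the list's values was not tested.

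Markers of other cell types were mostly lower in the DKO erythroid-like cells. The 8 neutrophil markers summed to 2493 CPM in the control and 940 in DKO cells below 15% hemoglobin, to 899 and 622 CPM at 40 to 75%, and to 901 and 1054 CPM at 15 to 40%, the stage where the DKO library was higher. The 8 megakaryocyte markers summed to 88.7 and 44.7 CPM below 15%, 83.5 and 55.7 CPM at 15 to 40% and 77.9 and 35.3 CPM at 40 to 75%. The part of RNA from other cells in the members' ratios was not tested. The 6 basophil or mast markers stayed between 0.721 and 4.08 CPM over the same stages, and 3 of the 6 were at 0 in DKO cells at 15 to 40% and at 40 to 75%. The 6 plasma cell markers summed to 27.2 and 232 CPM below 15% and 184 and 17.9 CPM at 40 to 75%.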

How the data were processed

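Femoral bone marrow cells of 2 mice were profiled with a droplet-based single-cell RNA assay, 1 library per genotype. The deposited values are raw UMI counts per gene and barcode, which the authors made with Cell Ranger (7.1.0 by the file header) on mm10 (the submitters' processing notes). Whether reads in introns were counted is not given in the sources used here. The control matrix listed all barcodes and the DKO matrix called cells, so control cells were called here (barcodes of at most 100 UMIs as empty, an order-of-magnitude threshold of 4869 UMIs plus a test of barcodes from 500 UMIs against them, 10000 simulations, false discovery rate 0.01). Cells over 20% mitochondrial UMIs (171 control, 215 DKO) and doublets called by Scrublet at its own thresholds (472, 2.48%, and 198, 1.42%) were left out.

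Cells were scaled to 10000 UMIs and clustered on 1999 variable genes without the members, Ddx41 and Cgas (30 components, 15 neighbours, Leiden resolution 1.0, 29 clusters) with scanpy 1.11.5, numpy 2.4.6 and scipy 1.17.1 in Python 3.11.15, and figures were drawn with matplotlib 3.10.9. Clusters were named from fixed markers. The naming rule was changed after a cluster of over 90% hemoglobin had stayed unnamed, and 1 small cluster remained unnamed. Counts were summed per stage or class and library. Ratios have 1 count added and exact conditional binomial intervals, levels Poisson intervals and shares Clopper-Pearson intervals, all 95% and covering counting error only. A count of 0 allows up to 3. The ratio step was tested on simulated data.

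The members and lists were chosen with earlier results of these data known. All members were named, together with the 5 genes most like each of Gata1, Klf1, Foxo3 and Bcl11a, Gata2, Spi1 and Fli1, and the lowest and highest gene of each list. Other genes (Slc4a1, Cdkn1b and Map1lc3b at 40 to 75%) were named after their values were seen. Of 14 alternatives, 11 were planned and 3 were chosen after seeing the data (stage from the whole cluster, without shared barcodes, and the length trend taken out). Gene positions are from GENCODE M21 on GRCm38, which held 32235 of the 32285 gene identifiers.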

Additional observations from a re-analysis of the deposited data

Results flagged for a closer look

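For 6 members the log2 ratio of DKO over control lay on opposite sides of 0 in different groups of cells, with both intervals clear of 0. The share of all genes that meet this rule was not counted, so the 6 are not read as a trait of the members. None of these differences between groups was tested, since each group is a single library per genotype. Gata1 was at 0.62 at 75 to 90% hemoglobin and at -1.11 at 90% or more, and Tal1, its partner in the E-box complex, at 1.03 and -1.40 in the same stages. By the stage of the whole cluster the values at 75 to 90% were -0.54 and -0.45, on the same side of 0 as those at 90% or more. At 90% or more Gata1 (3.47 CPM control, 1.62 DKO) was at about its level in B cell-like cells (4.78 and 1.32), and Tal1 (4.03 and 1.53 CPM) was below its own there (7.45 and 3.42), so those ratios were not read as differences in expression. Klf1 was at 0.72 at 75 to 90% and at -2.92 in megakaryocyte-like cells, and by the stage of the whole cluster the former was -1.06. In megakaryocyte-like cells it had 31 control UMIs and 1 DKO UMI. Lmo2 was at 0.31 at 75 to 90% and at -0.32 in basophil or mast-like cells, but the former was -0.71 by the stage of the whole cluster, -0.018 with the length trend taken out and -0.0038 when centred on all genes, so the opposite signs did not hold. Gfi1b was at 0.66 at 40 to 75% and at -1.54 at 90% or more, from 9 UMIs in each library at levels (1.25 and 0.430 CPM) below those in B cell-like cells (6.34 and 3.09), which were read as background. Bcl11a was at 0.22 below 15% and at -2.87 at 75 to 90%, from 47 control UMIs and 3 DKO UMIs. Below 15% it was -0.48 with each cell weighted alike and -0.015 with the length trend taken out.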

How the results depend on the processing

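Directions held for most member values, and the way a cell was assigned to a stage mattered most. Of 70 ratios (10 members in 7 groups), 0 of those whose interval excluded 0 changed sign when hemoglobin UMIs were left out of the scaling, when 0.5 counts were added, with at most 10% mitochondrial UMIs or without the shared barcodes. With the stage taken from the whole cluster, 29 of all 50 values in erythroid stages stayed within their interval. Of the others, 12 moved outside it, and 9 whose interval excluded 0 changed sign. At 40 to 75% hemoglobin the values that changed sign were Gata1 (-0.10) and Klf1 (-0.096), and the median of the members was -0.034. At 75 to 90% they were Gata1 (-0.54), Klf1 (-1.06), Tal1 (-0.45), Lmo2 (-0.71), Nfe2 (-0.56), Zfpm1 (-0.39) and Foxo3 (-0.19), with a median of -0.64. Within the clusters of both stages DKO cells held the larger hemoglobin share, as given above, and its part in these values was not tested.

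With each cell weighted alike, 25 of 70 values moved outside their interval and 2 changed sign. Values below 15% were then 0.045 for Lmo2, -0.48 for Bcl11a and 0.31 for the median. With the length trend taken out, they were -0.015 for Bcl11a and -0.023 for Foxo3 below 15%, and -0.018 for Lmo2 and 0.21 for the median at 75 to 90%. Centred on all genes, Lmo2 was at -0.0038 at 75 to 90% and the median at 40 to 75% was 0.30. With control cells matched to DKO cells on hemoglobin share, the median at 75 to 90% was 0.22 and Lmo2 at 90% or more was at 0.032. At the finer clustering Klf1 in megakaryocyte-like cells was at 0.21 and Zfpm1 in basophil or mast-like cells at -0.58, and with doublets kept the latter was at -0.48. Scaled without hemoglobin UMIs, 2 rather than 6 members were highest at 15 to 40% in DKO cells. The causes were not tested. Depth limits the late stages, where members had as few as 3 UMIs in a group. No paired analysis was possible because each genotype had 1 library.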
